A study of Mus musculus with 8 samples.

Results

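The nuclear genes for subunits of the mitochondrial respiratory chain and ATP synthase were followed in macrophages of the mouse heart. Members were taken from the count table by their symbols, which begin with Nduf and a subunit letter, Sdh, Uqcr, Cox or Atp5, leaving out the assembly factors named Ndufaf. The rule uses names and no measured value. It found 82 members among 24516 genes, 37 of complex I, 4 of complex II, 8 of complex III, 16 of complex IV and 17 of complex V. Over the 8 libraries 55 of the 82 (67.1%) had a total of 80 or more counts, 17 had 1 to 79 counts and 10 had no count.

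RNA was sequenced from 2 kinds of cardiac tissue macrophage sorted from the heart of 28-day-old C57BL/6 mice. All mice had the genotype Nfatc1Cre/+; Rosa26Tomato reporter/+, so that Cre made in cells with active Nfatc1, such as endocardium, switches the reporter on for good in those cells and their progeny. The first group has 4 libraries (E591, E592, E604 and E606) of endocardially derived macrophages (EcTM). The other group has 4 (N591, N592, N604 and N606) of macrophages sorted as not of that origin (non-EcTM), from mice of the same strain, age and genotype. Nothing in the labels ties a title number to an animal or says how many hearts went into a library. The p-values therefore measure the spread between libraries, which may be technical in part. Libraries that share a number were treated as a pair, and values are given in the order of the libraries above.

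Oxidative phosphorylation takes place in the inner mitochondrial membrane. Complex I oxidises NADH and complex II oxidises succinate, both pass electrons to ubiquinone, complex III passes them on to cytochrome c and complex IV to oxygen, while complexes I, III and IV pump protons that drive ATP synthase, called complex V. In macrophages the balance between this route and glycolysis shifts with activation, and heart muscle, the tissue around these cells, is among the richest in respiratory chain transcripts.

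The libraries held 2152425 to 2937464 counts in genes, and 3 counts, the level that a count of 0 still allows, equal 0.99 to 1.43 CPM (counts scaled to a common library size, so that levels can be compared between libraries). Macrophage markers fitted the label in both groups. The 12 listed markers summed to 28577 to 29694 CPM in EcTM libraries and 26941 to 29507 CPM in the others, and 11 of the 12 had counts, with Itgam at 0. The macrophage sum was higher in EcTM in 4 of 4 pairs, by a mean pair log2 ratio of 0.04. Of the 11 fitted markers 9 had log2 fold changes above 0 and 2 below, and 0 were called. The 18 cardiomyocyte markers summed to 120 to 173 CPM and 149 to 238 CPM, the 12 endothelial markers to 42.5 to 413 CPM and 111 to 1116 CPM, and the 8 mural markers to 79.5 to 99.6 CPM and 77.5 to 295 CPM. The 10 fibroblast markers summed to 24.5 to 137 CPM in EcTM and 22.3 to 192 CPM in non-EcTM. Neutrophil and lymphocyte markers stayed at or under 6.71 CPM in every library, and erythrocyte markers had no count. Every list had markers at 0 in all libraries, among them Pecam1, Tek and Emcn (endothelial), Myh11 and Pdgfrb (mural) and Pdgfra and Postn (fibroblast). The same holds for S100a9, Ly6g and Camp (neutrophil) and Klrb1c and Nkg7 (lymphocyte). A 0 in this table is no sign that a gene is off, so these sums may be too low and do not show that a cell type is absent. In bulk RNA, fewer cells of a type and less RNA per cell cannot be told apart.

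How many members could be measured went with the number of curated RefSeq transcripts of the gene. Among the 53 members with 1 curated transcript 44 had 80 or more counts, 3 had none and the median total was 493. Among the 18 members with 2 transcripts, 9 had 80 or more counts and the median was 118. Only 2 of the 11 members with 3 or more transcripts reached 80 counts, 5 had none and the median was 6. The members at 0 were Ndufs1, Ndufs5, Ndufs6, Ndufs8 and Ndufa7 of complex I, Cox6b2, Cox7a2l, Cox7b2 and Cox8c of complex IV and Atp5g3 of complex V. Ndufs1 and Ndufs8 encode core iron-sulfur subunits that every complex I contains, so a 0 in this table is no sign that a gene is off. For that reason members are compared between groups, and levels are compared between genes only among members with 1 transcript. Having 1 transcript is no safeguard, since Ndufs5 at 0, Ndufb4 at 8, Atp5g2 at 11 and Cox7c at 60 counts also have 1. Levels compared between genes may therefore be too low for some of them. The plot of total counts against transcript number shows these totals for every member.

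**Figure D1:**
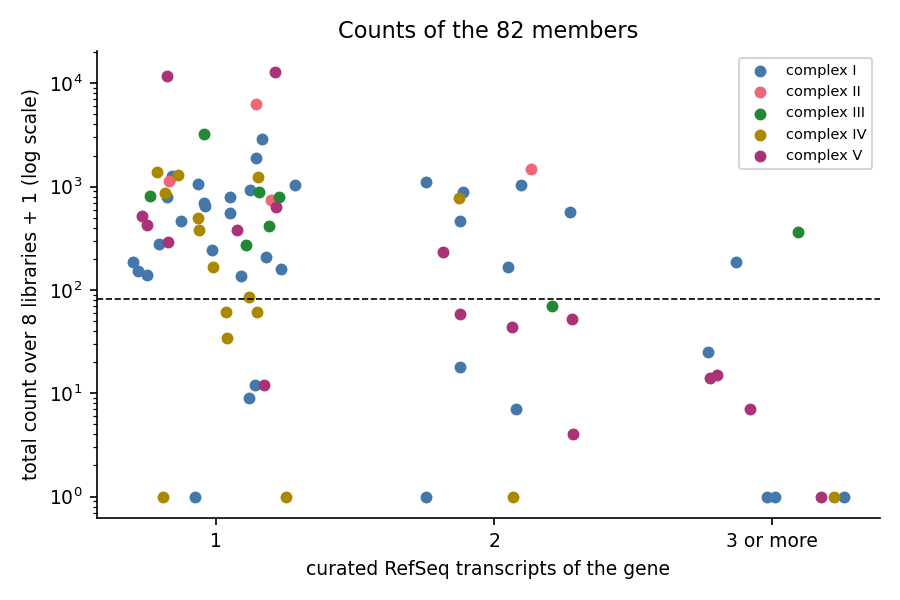
Total count over the 8 libraries plus 1 (log scale) of each of the 82 members, by the number of curated RefSeq transcripts of the gene, with the complexes in colours and a dashed line at 80 counts. Of 53 members with 1 transcript 44 lie at or above the line, and of 11 members with 3 or more transcripts 2 do.

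The minimum of 80 counts fell between Cox6a2 at 85, Ndufb3 at 136 and Ndufa1 at 137 on the inner side and Uqcrq at 69, Cox7a1 at 60 and Cox7c at 60 on the outer side. The 82 members together held 69543 counts, and 35.4% of these came from Atp5a1 and Atp5b, the alpha and beta subunits that form the catalytic head of ATP synthase. Counts of other members may be incomplete, so this share may be too high. Per kilobase of transcript, Atp5b stood highest of the 44 ordered members at 342 CPM per kb, followed by Atp5a1 at 244. Ndufb10 at 133, Cox6c at 129 and Cox6a1 at 123 CPM per kb came next. The ranges of these last 3 over the 8 libraries overlapped, from 112 to 151, 106 to 161 and 88.4 to 141 CPM per kb. The median of the 44 was 31.4 CPM per kb, and the lowest was Cox6a2 at 6.57.

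Promoter sequences of 3 members are shown because they carry letters of motifs that are textbook features of respiratory chain genes. RefSeq windows of GRCm38.p6, from 250 bases before to 50 bases after the start, were available for 69 of the 82 members. They were searched on both strands for GCATGCG (NRF1), CCGGAAG (ETS factors such as GABPA), AAGATGG (YY1) and AAGGTCA (ESRRA). The lines give the 250 bases before the start and the first 30 transcribed bases, 5′ to 3′ on the strand of the gene, with motif letters in capitals. Ndufa6 (complex I) is at chr15:82354262-82354541 and has 1 NRF1 match. Uqcr11 (complex III) is at chr10:80406792-80407071 and Cox6a1 (complex IV) at chr5:115348929-115349208, and both have an ETS match and the NRF1 letters. In CGCATGCG the NRF1 letters overlap their own reverse complement, so that 1 place counts as 2 matches. All 3 genes lie on the minus strand.
Ndufa6: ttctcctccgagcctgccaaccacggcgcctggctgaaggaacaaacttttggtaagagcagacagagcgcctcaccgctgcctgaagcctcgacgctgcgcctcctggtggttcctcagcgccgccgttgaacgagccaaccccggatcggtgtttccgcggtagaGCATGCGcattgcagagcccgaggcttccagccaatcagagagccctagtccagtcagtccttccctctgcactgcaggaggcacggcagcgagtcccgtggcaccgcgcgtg
Uqcr11: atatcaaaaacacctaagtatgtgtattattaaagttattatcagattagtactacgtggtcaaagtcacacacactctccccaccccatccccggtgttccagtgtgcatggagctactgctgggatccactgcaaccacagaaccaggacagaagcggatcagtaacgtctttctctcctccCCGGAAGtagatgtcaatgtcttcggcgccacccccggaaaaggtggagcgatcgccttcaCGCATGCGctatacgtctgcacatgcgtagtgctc
Cox6a1: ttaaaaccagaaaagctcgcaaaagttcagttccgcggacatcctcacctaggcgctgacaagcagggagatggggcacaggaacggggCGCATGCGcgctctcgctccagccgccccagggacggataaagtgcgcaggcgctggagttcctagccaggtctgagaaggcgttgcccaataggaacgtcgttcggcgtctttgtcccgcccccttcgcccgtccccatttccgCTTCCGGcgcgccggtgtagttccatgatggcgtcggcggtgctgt

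Among the 69 members with a window, the NRF1 letters were found in 11 (15.9%), the ETS letters in 16 (23.2%), the YY1 letters in 12 (17.4%) and the ESRRA letters in 8 (11.6%). Over all 27025 genes in the promoter table the 4 shares were 4.01%, 9.93%, 7.28% and 5.38%. Among the 46 fitted members with a window they were 19.6%, 30.4%, 13% and 10.9%, and among the 6106 fitted genes with a window they were 7.22%, 21.8%, 9.15% and 3.44%. At least 1 of the 4 motifs stood in 36 of 69 members (52.2%) and 23.8% of all genes, and in 54.3% of fitted members and 35.9% of fitted genes. A match is a run of letters in a window and not a site shown to bind a factor. Of the regulators themselves, Gabpa, the DNA-binding subunit of GABP, averaged 135 ± 4.72 CPM (SD, n = 4) in non-EcTM and 109 ± 4.82 CPM in EcTM. Its log2 fold change was -0.30 ± 0.15 (SE), lower in 4 of 4 pairs, and did not pass (edgeR's quasi-likelihood test, adjusted p = 0.914). The 7 fitted regulators of mitochondrial biogenesis, Gabpa included, showed no common direction, with 4 below 0, 3 above and a median of -0.08. Tfam had -0.74 ± 0.40 and Ppargc1b 0.51 ± 0.35, and neither passed.

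None of the 55 members with 80 or more counts passed the comparison of EcTM with non-EcTM. In edgeR's quasi-likelihood test with the pairs as a block and Benjamini-Hochberg adjustment over 7667 fitted genes, 0 of 55 members were called, where 1 of the 7667 genes was called (0.013%), the integrin gene Itga9. DESeq2 with pairs called 0 members and 0.393% of the 4325 genes to which it gave an adjusted p. It gave none for some members, among them Uqcrb, Ndufa3, Ndufb5, Cox7a2, Ndufb2 and Uqcr11, so these could not be called there. In limma-voom with pairs 0 members and 0.248% of genes were called, and edgeR without pairs called 0 of either. Before adjustment, 3 of the 55 members (5.45%) had a p under 0.05, which is the share over all fitted genes (5.4%). These were Ndufa13, Uqcrb and Cox6c, each lower in EcTM, where 2.63% of all genes were at that level and lower.

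The members leaned to lower values in EcTM by a small amount. Fitted log2 fold changes were below 0 in 37 of the 55 members (67.3%) and in 51.5% of all genes, with medians of -0.12 and -0.01. Members lower in EcTM in 4 of 4 pairs numbered 10 (18.2%, against 6.93% of all genes), and 1 was higher in 4 of 4 pairs (Ndufs7, against 7.26% of all genes). The 11 members with 1 direction in 4 of 4 pairs made up 20% of the 55, against 14.2% of all genes. By complex the median was -0.11 for the 27 members of complex I, -0.03 for the 4 of complex II, -0.30 for the 7 of complex III, -0.25 for the 9 of complex IV and 0.04 for the 8 of complex V. These medians moved with single pairs, and also with the model and filter, as given further below. Without E591 and N591 complex III had -0.10. Complex IV had -0.14 without E604 and N604 and -0.42 without E606 and N606, and complex I had -0.055 without E604 and N604. Complex II turned to 0.026 without E591 and N591, and complex V turned to -0.055, -0.029 and -0.075 when the pairs of E591, E604 and E606 were left out in turn. In the authors' deposited log2 values the median difference was -0.04 over the 55 members and 0.00 over all genes, in which low counts are drawn toward a common level. The plot of 54 of these fold changes shows how far they spread within each complex.

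**Figure D2:**
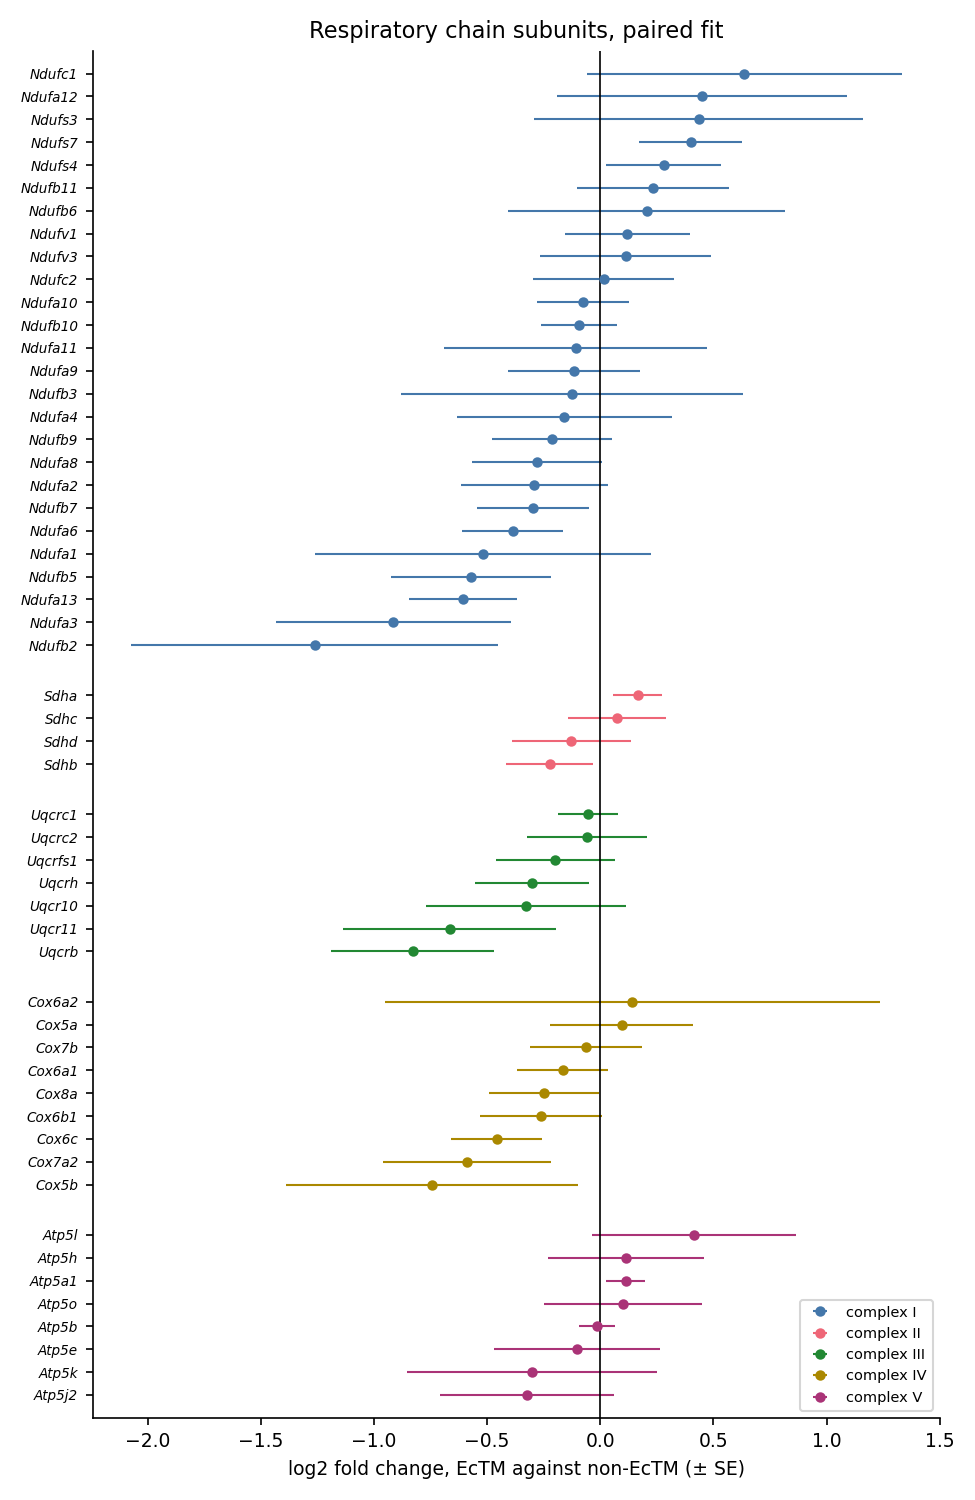
Log2 fold change of EcTM against non-EcTM (x axis) with bars of 1 SE for 54 of the 55 members with 80 or more counts, from the edgeR fit with pairs, grouped and coloured by complex. Complexes III and IV lie mostly to the left of 0, with 7 of 7 and 7 of 9 members below it, and complex V lies on both sides, with 4 of 8 below.

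Among complex I members, accessory subunits had the lowest log2 fold changes, and a core subunit was the 1 member higher in EcTM in 4 of 4 pairs. Ndufa13, an accessory subunit of the membrane arm also known as a regulator of cell death, stood at 35.7, 47.8, 31.6 and 62.8 CPM in EcTM and at 77.1, 61.5, 62.8 and 63.0 CPM in non-EcTM. The 2 groups met in E606 and N606, where the values were nearly equal, and the other 3 EcTM libraries lay below every non-EcTM library. Its log2 fold change was -0.60 ± 0.24 with an unadjusted p of 0.0183 and an adjusted p of 0.871 in edgeR. Over 12 alternatives the log2 fold change ran from -0.82 to -0.44 and the adjusted p from 0.428 to 0.998. Ndufa13 (chromosome 8, 69894163 to 69902558, GRCm38.p6) overlaps Tssk6, and reads of overlapping genes may not be separable.

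Ndufa6, an accessory subunit of the LYR protein family, stood at 42.4, 44.7, 42.1 and 56.5 CPM in EcTM and at 65.5, 61.1, 54.1 and 61.4 CPM in non-EcTM. Each EcTM library was below its partner, and only E606 reached into the range of non-EcTM. Its log2 fold change was -0.39 ± 0.22 (edgeR adjusted p = 0.931). Ndufs7, the core subunit that holds the iron-sulfur cluster next to ubiquinone, went the other way, at 40.0, 66.1, 55.7 and 76.2 CPM in EcTM and 35.4, 38.8, 44.1 and 61.7 CPM in non-EcTM. Each EcTM library lay above its partner although the groups overlapped, since E606 and N606 were both high and E591 and N591 both low. Its log2 fold change was 0.40 ± 0.23 (edgeR adjusted p = 0.931).

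Ndufa3, Ndufb5 and Ndufb2, accessory subunits of the membrane arm, had lower counts and wider errors. Ndufa3 stood at 9.05, 7.60, 14.9 and 4.34 CPM in EcTM and 19.1, 12.9, 15.7 and 15.5 CPM in non-EcTM, lower in 4 of 4 pairs, with a log2 fold change of -0.91 ± 0.52. Ndufb5 stood at 12.4, 19.2, 14.0 and 30.8 CPM against 31.8, 21.1, 25.3 and 31.0 CPM, also lower in 4 of 4 pairs, with -0.57 ± 0.35. For Ndufb5, E606 and N606 were alike, while E591 and E604 were lowest. Ndufb2 varied more within EcTM, at 2.38, 14.7, 0.877 and 7.90 CPM, than within non-EcTM, at 20.3, 6.65, 12.2 and 9.24 CPM. Its log2 fold change of -1.26 ± 0.81 rested on 184 counts and ran from -2.19 without E592 and N592 to -0.58 without E604 and N604. Over all alternatives Ndufa3 ran from -1.21 to -0.63 and Ndufb5 from -0.78 to -0.32. Of the 3, none passed, with adjusted p-values of 0.931 to 0.946 in edgeR.

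Ndufs3, a core subunit, had a log2 fold change of 0.44 ± 0.73 on 150 counts, and Ndufv1, the core subunit that binds NADH, had 0.12 ± 0.28. Ndufv2, another core subunit, had 6 counts in all. Ndufb3 had 21.9 CPM in E591 and 2.68 to 3.95 CPM in the other EcTM libraries, against 5.23 to 7.94 CPM in non-EcTM, and its sign turned with the model. The log2 fold change of Ndufb3 was -0.12 ± 0.76 in the fit with pairs and 0.36 in the fit without them. Ndufa1, an accessory subunit encoded on the X chromosome, had -0.52 ± 0.74 on 137 counts.

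The 16 further complex I members with 80 or more counts had log2 fold changes of -0.30 to 0.64. Those below 0 were Ndufb7 (-0.30), Ndufa2 (-0.29), Ndufa8 (-0.28), Ndufb9 (-0.21), Ndufa4 (-0.16), Ndufa9 (-0.12), Ndufa11 (-0.11), Ndufb10 (-0.09) and Ndufa10 (-0.08). Those above 0 were Ndufc2 (0.01), Ndufv3 (0.11), Ndufb6 (0.21), Ndufb11 (0.23), Ndufs4 (0.28), Ndufa12 (0.45) and Ndufc1 (0.64). Their errors ran from 0.17 for Ndufb10 to 0.70 for Ndufc1, the latter on 158 counts. Ndufa4 carries a complex I name but its protein is now placed in complex IV. Ndufb4, Ndufa4l2, Ndufb8 and Ndufa5 had 8, 11, 17 and 24 counts in all and were not fitted.

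Complex II showed no shared direction. Sdha, the flavoprotein that oxidises succinate, stood at 294, 335, 331 and 393 CPM in EcTM and 312, 273, 339 and 283 CPM in non-EcTM. E592 and E606 lay above their partners and E591 and E604 below them, and the groups overlapped. Sdha had a log2 fold change of 0.17 ± 0.11 (edgeR adjusted p = 0.946). Sdhb, the iron-sulfur subunit, stood at 72.4, 63.9, 55.7 and 88.1 CPM against 81.0, 76.3, 84.6 and 81.5 CPM. E606 was the highest of all 8 libraries and the other 3 EcTM libraries the lowest, with a log2 fold change of -0.22 ± 0.19. Sdhc and Sdhd, the membrane anchors, had 0.08 ± 0.22 and -0.13 ± 0.26.

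In complex III all 7 measured members had fitted log2 fold changes below 0, of -0.83 to -0.05, and 3 of them (42.9%) were lower in EcTM in 4 of 4 pairs. Uqcrb, a small subunit next to the ubiquinone site, stood at 11.9, 17.0, 14.5 and 16.6 CPM in EcTM and 29.4, 27.4, 21.4 and 28.4 CPM in non-EcTM. Every EcTM library lay below every non-EcTM library. The log2 fold change was -0.83 ± 0.36, with an unadjusted p of 0.0307 and an adjusted p of 0.897 in edgeR. Over the alternatives that gave an adjusted p it ran from 0.762 to 0.998, and DESeq2 gave none for Uqcrb. Uqcrb lies on chromosome 13 from 66900576 to 66905350 (GRCm38.p6).

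Uqcr11, another small subunit, stood at 10.5, 14.3, 7.02 and 10.7 CPM in EcTM and 11.9, 20.0, 17.5 and 17.5 CPM in non-EcTM. Each pair was lower in EcTM, E592 lay above N591, and the log2 fold change was -0.67 ± 0.47 on 271 counts. Uqcrh, the hinge protein of the complex, was also lower in 4 of 4 pairs, at -0.30 ± 0.25, and has 2 named pseudogenes whose reads may be shared. Uqcr10 had -0.33 ± 0.44 and Uqcrfs1, the Rieske iron-sulfur protein, -0.20 ± 0.26. The larger core proteins, which make up most of the complex III counts, differed least. Uqcrc1 stood at 148, 160, 193 and 150 CPM in EcTM and 184, 161, 162 and 166 CPM in non-EcTM, with -0.05 ± 0.13, and 0.031 without E591 and N591. Uqcrc2 had -0.06 ± 0.26.

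Complex IV held the member with the most even difference. Cox6c, a nuclear subunit around the catalytic core, stood at 56.2, 54.1, 55.3 and 53.3 CPM in EcTM and 81.0, 71.6, 75.0 and 73.0 CPM in non-EcTM. The groups did not overlap, and the 4 pair log2 ratios had an SD of 0.05. The log2 fold change was -0.46 ± 0.20, with an unadjusted p of 0.0324 and an adjusted p of 0.902 in edgeR. This SE and the SD of the pair ratios are unlike measures, since edgeR draws the SE in part from other genes. Over 13 alternatives the log2 fold change ran from -0.47 to -0.43 and the adjusted p from 0.467 to 0.998. Cox6c lies on chromosome 15 from 35931976 to 35938246 (GRCm38.p6). Cox6c and Uqcrb were the 2 members of 55 (3.64%) whose groups did not overlap, where 2.7% of all fitted genes had groups that did not overlap and 1.41% had EcTM below.

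Cox7a2, the form of subunit VIIa found outside muscle, stood at 18.6, 9.38, 19.7 and 14.2 CPM in EcTM and 27.0, 13.3, 28.4 and 24.4 CPM in non-EcTM. It was lower in 4 of 4 pairs while E592 and N592 were both low, with a log2 fold change of -0.59 ± 0.37. Cox5b was lower in 4 of 4 pairs as well, at -0.74 ± 0.65 on 166 counts. Cox6a1, with the highest CPM in complex IV when averaged over the 8 libraries, stood at 66.7, 50.5, 68.9 and 79.4 CPM in EcTM and 80.6, 71.2, 78.1 and 65.7 CPM in non-EcTM. E606 lay above its partner and the other 3 EcTM libraries below theirs, with -0.17 ± 0.20. Of the other fitted members, Cox6b1, Cox8a, Cox7b and Cox5a had -0.26 ± 0.27, -0.25 ± 0.24, -0.06 ± 0.25 and 0.10 ± 0.32, and the muscle form Cox6a2 had 0.14 ± 1.09.

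**Figure D3:**
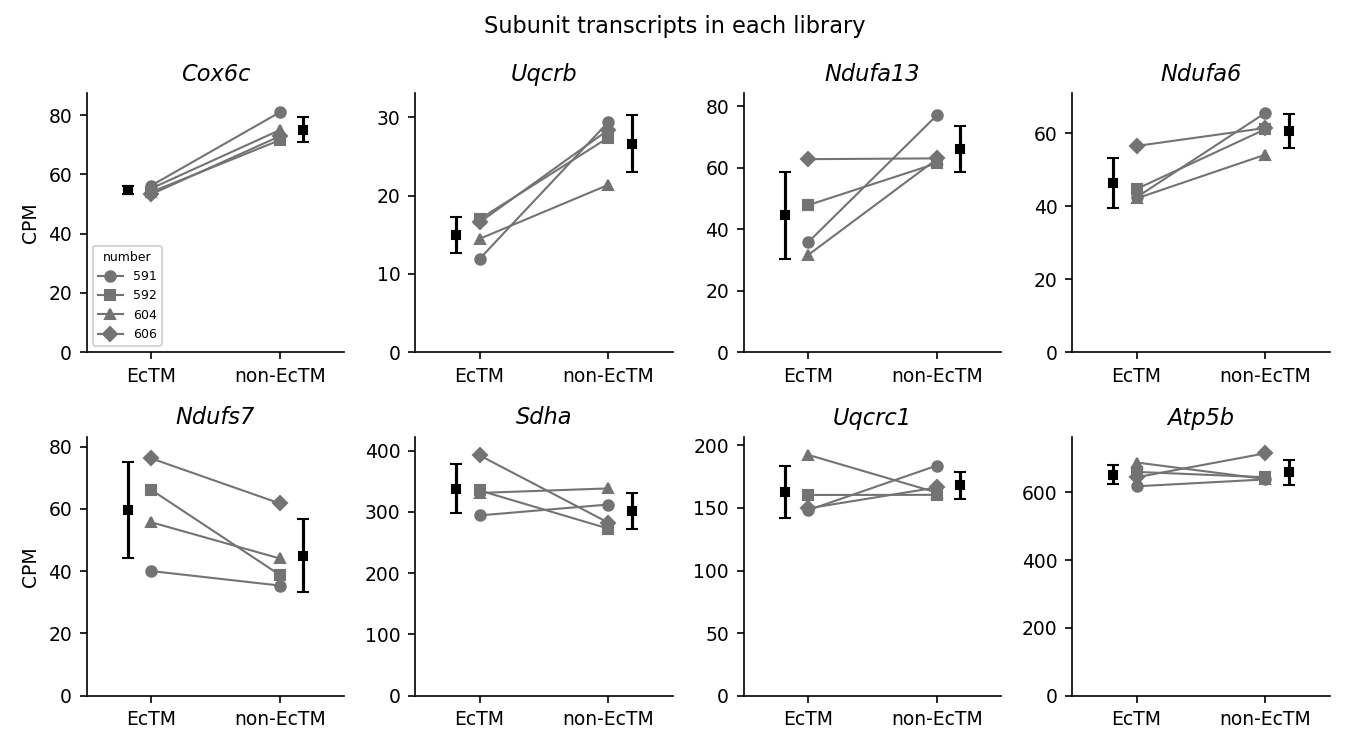
Normalised expression (CPM, y axes from 0) of 8 members in each library, with grey lines from each EcTM library to its partner and the group mean as a black square with a bar of 1 SD (n = 4). Cox6c and Uqcrb separate the groups, Ndufa13 and Ndufs7 overlap, and Sdha, Uqcrc1 and Atp5b show pairs that go both ways.

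In complex V, the ATP synthase, the 2 most deeply counted members had log2 fold changes near 0. Atp5b stood at 618, 660, 688 and 644 CPM in EcTM and 638, 645, 639 and 715 CPM in non-EcTM. The log2 fold change was -0.01 ± 0.08 and turned to 0.026 without E606 and N606. Atp5a1 stood at 637, 603.6, 561 and 701 CPM in EcTM and 508, 542, 643 and 626 CPM in non-EcTM. E604 lay below its partner and the other 3 EcTM libraries above theirs, and the log2 fold change was 0.11 ± 0.09, with 0.21 without E604 and N604 and 0.042 without E591 and N591. Of the smaller subunits, those of the stalks and the membrane part, Atp5l had 0.42 ± 0.45, Atp5h 0.11 ± 0.34 and Atp5o 0.10 ± 0.35. Atp5e had -0.10 ± 0.37, Atp5k -0.30 ± 0.55 and Atp5j2 -0.32 ± 0.38. None was in 1 direction in 4 of 4 pairs.

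The ring subunit genes of ATP synthase could not be compared, with 3 counts for Atp5g1, 11 for Atp5g2 and none for Atp5g3. Atp5c1 of the central stalk had 14 counts, Atp5d 51, Atp5f1 43 and Atp5j 6. Atp5s and Atp5sl, which bear the name but are not counted as subunits in the strict sense, had 13 and 57 counts. In complex III, Uqcrq had 69 counts and was the 1 member not fitted.

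Summed over all members, the respiratory chain took 3303 CPM (E591) to 3822 CPM (E606), and the groups overlapped. Complex I summed to 994 ± 62.5 CPM (SD, n = 4) in non-EcTM and 934 ± 88.4 CPM in EcTM, and, with EcTM first, complex II to 505 ± 59.1 and 478 ± 33.1 CPM. Complex III summed to 303, 348, 350 and 315 CPM in EcTM and 399, 344, 378 and 357 CPM in non-EcTM. Complex IV summed to 308, 302, 313 and 361 CPM in EcTM and 371, 346, 424 and 351 CPM in non-EcTM. Both were lower in EcTM in 3 of 4 pairs, with mean pair log2 ratios of -0.17 ± 0.17 and -0.22 ± 0.20 (SD), and the exceptions were E592 for complex III and E606 for complex IV. Complex V summed to 1416 ± 58.0 and 1377 ± 107 CPM and was lower in 1 pair. No p is given for these sums, since the members were chosen with results of these data known.

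**Figure D4:**
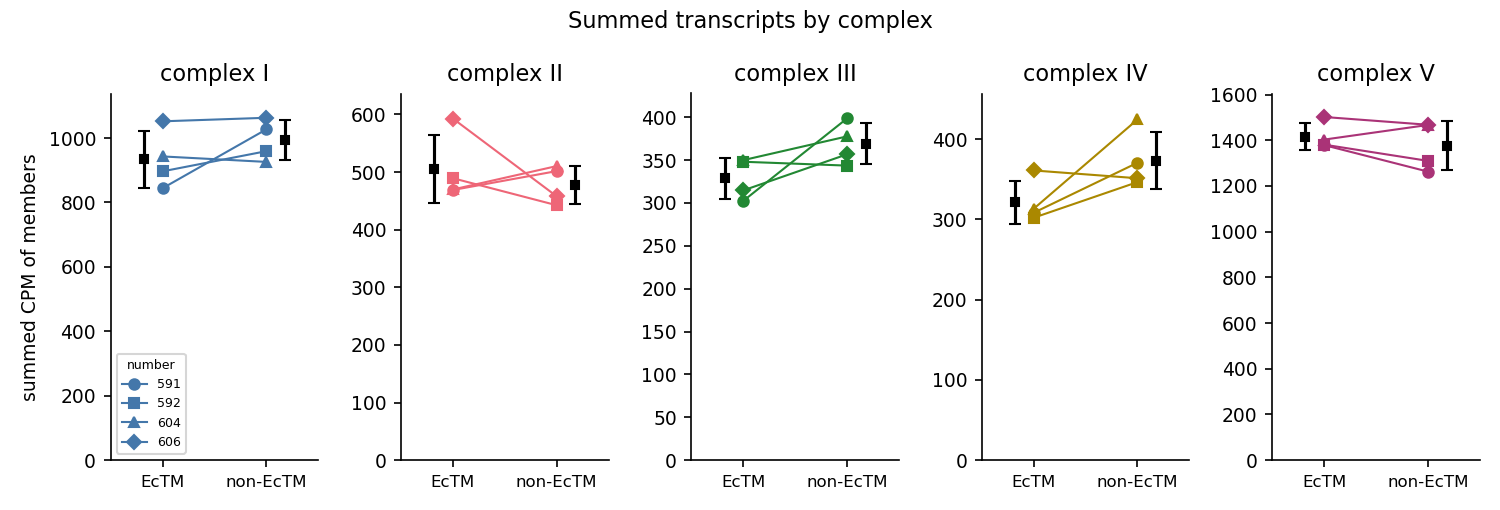
Summed CPM of the members of each complex in each library (y axes from 0), with lines from each EcTM library to its partner and the group mean as a black square with a bar of 1 SD (n = 4). In complexes III and IV 3 of 4 lines climb from EcTM to non-EcTM, and in complex V 1 of 4 does. Most of the complex V sum came from Atp5a1 and Atp5b, and most of the complex II sum from Sdha.

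Short transcripts leaned the same way as the members. The median transcript length was 732 bases for fitted members and 3088 bases for all fitted genes. Among the 448 fitted genes of at most 1000 bases, the median log2 fold change was -0.08, 56.5% were below 0 and 10.3% were lower in EcTM in 4 of 4 pairs. The 35 members of that length, which are among the 448 genes, had a median of -0.25, 25 of them were below 0, and 8 were lower in 4 of 4 pairs. The sets of longer genes include their members in the same way. From 1000 to 2000 bases the medians were -0.05 for 1504 genes and -0.06 for 16 members, and from 2000 to 4000 bases they were -0.01 and 0.09, the latter for 4 members. The part of transcript length in the members' lower values was not tested.

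**Figure D5:**
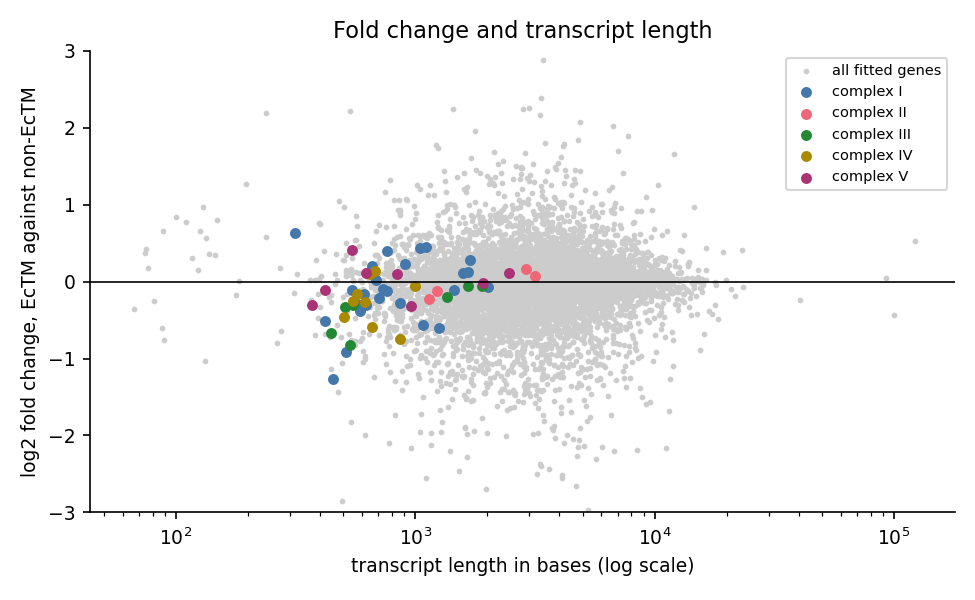
Log2 fold change of EcTM against non-EcTM against transcript length in bases (log scale) for fitted genes in grey and 54 of the 55 members in the colours of their complexes, with 2 genes beyond a log2 fold change of 3 not drawn. Members below 1000 bases spread downward to -1.26, and the 4 members over 2000 bases lie near 0.

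Transcripts of cardiomyocytes leaned the same way. The summed cardiomyocyte markers were 173, 143, 120 and 172 CPM in EcTM and 238, 169, 149 and 207 CPM in non-EcTM, lower in EcTM in 4 of 4 pairs. Of the 18 markers 15 had counts, while Myh6, Tnnt2 and Pln were at 0 in all libraries. Endothelial markers were lower in EcTM in 3 of 4 pairs, and so were mural markers. N591 stood apart in these lists, with 1116 CPM of endothelial markers where N592, N604 and N606 had 111 to 165 CPM, 295 against 77.5 to 205 CPM of mural markers and 192 against 22.3 to 40.3 CPM of fibroblast markers. The pair of E591 and N591 is also the one without which the median of complex III was -0.10 in place of -0.30, and the part of these transcripts in that difference was not tested. The forms of complex IV subunits that are typical of heart and skeletal muscle gave few counts, 85 for Cox6a2, 60 for Cox7a1 and 33 for Cox8b over the 8 libraries. Cox6a2 had 17, 15, 0 and 12 counts in EcTM and 23, 6, 7 and 5 in non-EcTM, and Cox7a1 had 7, 10, 6 and 10 against 1, 3, 7 and 16. Cox8b had 18 counts in E591 and at most 6 in any other library. The testis forms Cox6b2, Cox7b2 and Cox8c were at 0. The part of RNA from heart muscle in the members' values was not tested.

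Other genes of mitochondrial respiration were read from lists. Of the 9 fitted assembly factors of complex I the median log2 fold change was 0.09, and of the 18 of complex IV it was -0.19, with 13 below 0. Among the latter Coa4 had -2.20 ± 1.14 on means of 1.62 and 5.37 CPM, and Pet100 had -0.55 ± 0.34, both lower in 4 of 4 pairs. Cox11, which takes part in copper delivery to complex IV, had 1.77 ± 1.05 on means of 6.00 and 1.88 CPM and was higher in 4 of 4 pairs. Among 5 subunits outside the symbol rule, Ndufab1, the acyl carrier protein of complex I, stood at 13.3, 25.0, 11.8 and 21.7 CPM in EcTM and 5.56, 7.83, 11.3 and 8.91 CPM in non-EcTM. All EcTM libraries lay above all non-EcTM libraries, and the log2 fold change was 1.07 ± 0.50 (edgeR adjusted p = 0.907). Ndufab1 has 4 curated transcripts and is among the genes whose counts may be incomplete. Cyc1, the cytochrome of complex III, had -0.34 ± 0.32. No list held a called gene, against 0.013% of all genes. The subunits encoded by mitochondrial DNA were not analysed here.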

How the data were processed

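Sorted macrophages gave total RNA, sequenced after preparation with a SMARTer stranded kit of the Pico type, per the labels' protocols. The submitters' processing notes name bcl2fastq 2.17, TopHat, mm10, DESeq2 and R 3.2. How reads were counted (program, gene models, strand) is not given in the sources used here. Whole-number counts per gene were deposited by the authors and, per the file headers and values, log2 values for the same libraries, which are printed only as medians over genes.

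Counts of all 24516 genes were filtered with filterByExpr, which left 7667 genes and 55 members, the same members as a total of 80 counts over 8 libraries. Groups were compared with the quasi-likelihood test of edgeR 4.0.16 in R 4.3.3, with TMM scaling and the title number as a replicate block, with Benjamini-Hochberg adjustment over all fitted genes and a threshold of 0.05. An SE is the log2 fold change divided by the root of the F statistic. CPM are TMM-scaled, and pair log2 ratios use a prior count of 2. Within a number, libraries of both groups deviated together, with Pearson correlations across genes of 0.12 to 0.19 (minimum required 0.1) and -0.13 to 0.05 for other combinations. The coefficient of variation between libraries was 0.304 with the block and 0.346 without it. DESeq2 1.42.0 and limma 3.58.1 were alternatives, as were fits without pairs, other scalings and filters, genes with 1 curated transcript, and each pair left out. The fits were tested on simulated data. Coordinates, transcripts and promoters are from RefSeq for GRCm38.p6, in which 24447 genes and all 82 members were matched by Entrez number. Figures were drawn with matplotlib 3.10.9.

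Members and gene lists were chosen with earlier results of these data known. Members named with values are the 12 with the smallest unadjusted p, the highest and lowest measured in each complex, tissue-restricted forms, those nearest the minimum of 80 counts and complex II. Other lists gave at most 3 names each, again by unadjusted p, and the remaining members appear where their complex is accounted for. The values of 1 member that this rule would name are not reported here, and it enters only counts, sums and medians.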

Additional observations from a re-analysis of the deposited data

Results flagged for a closer look

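In 120 sets of 4 libraries (each of the 55 fitted members and 5 complex sums in each group), 7 held a library far from the other 3, and chance alone marks about 1 set in 20. In non-EcTM, N606 had the highest Atp5b at 715.3 CPM, with the others at 638 to 645 CPM, and the lowest Cox6b1 at 27.4 CPM, with the others at 48.1 to 51.0 CPM. N591 had the highest Ndufa13 at 77.05 CPM, with the others at 61.5 to 63.0 CPM, and the highest Sdhc at 70.29 CPM, with the others at 50.1 to 53.5 CPM. In EcTM, E591 had the highest Ndufb3 at 21.91 CPM, with the others at 2.68 to 3.95 CPM. E606 had the highest Ndufc1 at 11.06 CPM, with the others at 8.58 to 8.94 CPM, and the highest sum of complex II at 592.7 CPM, with the others at 469 to 489 CPM.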

How the results depend on the processing

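Of 13 alternatives, each called 0 of the members it fitted, although DESeq2 gave no adjusted p for some of them. Over all genes 1 was called with pairs, 0 without the replicate block (257 at an unadjusted p under 0.05), 17 by DESeq2, 19 by limma-voom, 10 without a filter on low counts, 0 among genes with 1 curated transcript (280 at an unadjusted p under 0.05), and 1 to 2 when a pair was left out. Members in 1 direction numbered 11 over 4 pairs and 17 to 18 over the 3 pairs left when 1 was omitted. Fewer pairs share a direction by chance more often, and the share of all genes over 3 pairs is not given here. The rise is therefore no result about the members. Over these leave-outs the medians ran from -0.11 to -0.055 in complex I, -0.11 to 0.026 in II, -0.37 to -0.10 in III (-0.10 without E591 and N591), -0.42 to -0.14 in IV and -0.075 to 0.10 in V. DESeq2 gave -0.14 for complex V and no filter -0.15, and for complex IV they gave -0.11 and -0.12. Both fits took in 72 members where the main fit had 55, so their medians run over more members of low count. Complex III had -0.18 in limma-voom and -0.20 without the replicate block. Complex II had 0.0076 in limma-voom and 0.071 among genes with 1 curated transcript. Complexes I, III and IV stayed below 0 in every alternative. Of 276 values for 22 fitted named members 267 kept their direction, and 9 in 6 members reversed, all with main values of -0.30 to 0.14. With a pair left out Ndufb3 ran from -0.69 to 0.25, Uqcrc1 from -0.16 to 0.031, Cox6a2 from -0.40 to 0.90 (-0.38 without E606 and N606), Atp5b from -0.056 to 0.026, Atp5k from -0.66 to 0.11 and Sdhc from -0.057 to 0.18. The reversing values came without E591 and N591 for Uqcrc1, without E592 and N592 for Ndufb3, Cox6a2 (-0.40) and Atp5k, and without E606 and N606 for Atp5b and Sdhc. Ndufb3 gave 0.36 without the replicate block and 0.44 in limma-voom. The cause of these changes was not tested. The replicate block changed no call of a member.

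Depth limits what could be seen. Members with totals of 80 to 300 counts had SEs of 0.45 to 1.09, those of 300 to 1000 counts 0.25 to 0.44, and those above 1000 counts 0.079 to 0.25 on the log2 scale. Counts may be incomplete, above all in genes with several transcripts, which adds an error of unknown size.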

Other observations

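Other mitochondrial genes showed no common direction. Ucp2, an inner membrane carrier abundant in macrophages, stood at 3760, 2895, 2910 and 2776 CPM in EcTM and 3238, 2582, 2681 and 2265 CPM in non-EcTM. Each EcTM library lay above its partner, and the log2 fold change of 0.20 ± 0.05 missed the threshold in edgeR (adjusted p = 0.413). The median log2 fold change was 0.00 for 57 fitted genes of the mitochondrial ribosome, where Mrpl52 had -0.68 ± 0.26 and Mrpl39 0.60 ± 0.29. It was -0.03 for 15 genes of the tricarboxylic acid cycle, 0.14 for 11 genes of import and cristae and -0.34 for 6 genes of coenzyme Q synthesis. Among 6 mitochondrial antioxidant genes the median was -0.37, with 5 below 0, and the thioredoxin reductase gene Txnrd2 had -0.60 ± 0.34, lower in 4 of 4 pairs. Import receptor gene Tomm70a had 0.51 ± 0.23 and prohibitin gene Phb2 0.35 ± 0.18. The median of 46 cytosolic ribosomal protein genes was -0.01. In edgeR none of these genes was called.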
